A study of Arabidopsis thaliana with 20 samples.

Results

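Cytosolic ribosomal protein genes encode the proteins of the small and the large subunit of the ribosome that translates nuclear mRNAs. The rows of 45 such genes, 23 of the small and 22 of the large subunit in 23 protein families, were taken by their locus identifiers from a count table of 21 and 22 nt small RNAs that lists 27415 genes. The table holds 20 libraries from closed flower buds of *Arabidopsis thaliana*, which is a flowering plant of the cabbage family. The *cer7* mutants gave 5 libraries, 3 of the allele labelled cer7-gabi and 2 of cer7-sail. The *rst1* mutants gave 6 (3 of rst1-2 and 3 of rst1-3), and the *ripr* mutants gave 6 (3 of riprT and 3 of riprC). The wild type, labelled col0 and called WT here, gave 3. Alleles of *cer7* and *rst1* are T-DNA insertions, and the *ripr* alleles carry an extra T or C placed in the gene by CRISPR-Cas9. Mutants and wild type are in the Col-0 background, which lacks a fully functional SOV, a cytoplasmic exoribonuclease, so that all groups share that defect. Per the labels each library was made from the pooled buds of 4 plants, while the study's reporting summary gives a larger number, and the replicates of a genotype were grown at different dates in different chambers.

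CER7 (RRP45B) is a core subunit of the RNA exosome, which degrades mRNAs from their 3′ ends. RST1 is a large protein known from mutants with little stem wax, and RIPR was named as its interaction partner. When fragments of an mRNA are not removed, a plant RNA-dependent RNA polymerase can copy them into double-stranded RNA, and Dicer-like enzymes cut this into small RNAs of 21 and 22 nt. The mRNAs of ribosomal proteins are among the most abundant and most heavily translated messages of growing tissue, and in Arabidopsis nearly every ribosomal protein is encoded by several genes. The comparisons asked from which of these genes such reads were more frequent in each mutant than in WT.

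The 45 genes held 7904 of 6128998 counts, or 0.129%. The best covered 10 of them held 49% of the 7904, and *RPS9B* alone held 10.2%. The counts of 1 length class on genes summed to 192747 to 522464 per library. The small totals set the precision, because a gene with 10 counts in a library cannot be measured closely. A filter on low counts left 2916 of the 27415 genes and 27 of the 45 members for testing, 13 of the small and 14 of the large subunit. The 27 had 129 to 806 counts over all libraries. A gene was called when edgeR's quasi-likelihood test gave a Benjamini-Hochberg adjusted p under 0.01 over all 2916 genes and a log2 fold change beyond 1 in either direction. CPM are counts scaled to a total of 1e+06 reads on tested genes with TMM scaling. In pooled buds, more small RNA per cell and more cells of a type that makes it cannot be told apart.

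Facts of the whole series bear on the reading of these values. *CER3* (AT5G57800), a wax synthesis gene known to be silenced by small RNAs in *cer7*, had 2458 to 12893 counts in *cer7*, 2181 to 3884 in *rst1* and 1196 to 5049 in *ripr* libraries, against 23 to 29 in WT. The mutated genes themselves gave few small RNAs, so that their counts do not check the labels. *CER7* had 1 to 8 counts in *cer7* and 0 to 4 in WT, *RST1* had 1 to 23 in *rst1* and 0 to 3 in WT, and *RIPR* had 0 to 1 in *ripr* and 0 in WT. Only *RST1* passed the filter, with 39.7 ± 32.6 CPM (SD) in *rst1* and 6.48 ± 7.27 in WT. Its log2 fold change of 2.54 in *rst1* was not called (edgeR adjusted p = 0.0494), and the counts overlapped. Of 8 floral identity genes, 4 passed the filter, and 1 was called, *SEP2*, higher in *cer7* than in WT. All 8 had reads in *cer7* buds, from a highest count of 4 for *LFY* to 40 for *AP1*.

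Of the 27 tested members, 3 were raised in *cer7* against WT. They are *RPS9B* (AT5G15200), *RPSAA* (AT1G72370) and *RPS7C* (AT5G16130), and all 3 encode proteins of the small subunit. In *rst1* and in *ripr*, 2 were raised, *RPS9B* and *RPSAA*. These 11.1% of members in *cer7* compare with 17.4% of all tested genes raised in *cer7*, the 7.41% in *rst1* with 9.95% and the 7.41% in *ripr* with 9.91%. The shares were thus not above the background in any mutant. No member was lower in a mutant than in WT by edgeR, while 2.19% of all tested genes were lower in *cer7*, 0.652% in *rst1* and 0.72% in *ripr*. At an unadjusted p under 0.05, 4 members differed from WT in *cer7* (14.8%, beside 46.2% of all tested genes), 3 in *rst1* (11.1%, beside 33.2%) and 3 in *ripr* (11.1%, beside 32.3%), all of them higher in the mutant. DESeq2 called 2 members in *cer7*, 1 in *rst1* and 1 in *ripr*, none of them lower.

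A read can be assigned to a gene of a close family only where the sequences differ, and the handling of reads with several matches by the aligner in its unique mode is not known here. For the 3 called genes, the longest stretch of coding sequence that each shares with its nearest family member is therefore shown with its flanks. Each stretch is 60 bases of the coding strand, 5′ to 3′, from the RefSeq annotation of TAIR10.1, with capitals at the bases that differ between the pair. The S9 pair comes from chr5:4935166-4935225 on the minus strand (*RPS9B*) and chr5:15951073-15951132 on the plus strand (*RPS9C*), in a coding exon of each.
RPS9B: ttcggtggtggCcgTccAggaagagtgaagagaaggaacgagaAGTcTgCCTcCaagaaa
RPS9C: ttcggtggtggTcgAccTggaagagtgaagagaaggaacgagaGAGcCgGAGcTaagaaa
The SA pair comes from chr1:27243757-27243816 (*RPSAA*) and chr3:1310071-1310130 (*RPSAb*), both on the minus strand and in coding exons.
RPSAA: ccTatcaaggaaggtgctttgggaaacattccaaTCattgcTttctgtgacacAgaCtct
RPSAb: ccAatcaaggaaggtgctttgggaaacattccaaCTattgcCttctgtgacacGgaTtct
The S7 pair comes from chr5:5269146-5269205 (*RPS7C*) and chr3:542513-542572 (*RPS7B*), both on the plus strand and in coding exons.
RPS7C: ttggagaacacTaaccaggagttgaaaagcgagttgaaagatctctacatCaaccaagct
RPS7B: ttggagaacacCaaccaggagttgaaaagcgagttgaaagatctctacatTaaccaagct
The S9 genes had 25 identical bases in a row and 11 differences in this window, the SA genes 31 and 6, and the S7 genes 38 and 2. Over all exons, 94.8% of the 21-base words of *RPS9B*, 97.7% of those of *RPSAA* and 95.4% of those of *RPS7C* occur at only 1 place in the genome. Reads from nearly all of these exons can thus be told from those of other loci.

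*RPS9B* (chr5:4934810-4936429, minus strand) encodes S9, a small subunit protein near the entry of the mRNA channel, and had the most counts of all 45 genes. The *cer7* libraries had 56, 66 and 66 counts in cer7-gabi and 56 and 49 in cer7-sail. The *rst1* libraries had 28 to 52 counts (median 37) and the *ripr* libraries 28 to 62 (median 40). The WT libraries had 7, 11 and 9. Every mutant library stood above every WT library, with no overlap. The level was 189 ± 27.2 CPM in *cer7* (SD, n = 5), 158 ± 15.7 in *rst1* (n = 6) and 145 ± 25 in *ripr* (n = 6), against 42.7 ± 8.84 in WT (n = 3). The log2 fold change over WT was 2.12 ± 0.24 (SE) in *cer7*, a 4.36-fold higher level, with an edgeR adjusted p of 2.15e-07. It was 1.88 ± 0.24 in *rst1* (adjusted p = 2.04e-06) and 1.76 ± 0.24 in *ripr* (adjusted p = 5.33e-06). The call held in all 28 alternative settings in each mutant, including every library left out in turn. Among these settings, the looser adjusted p threshold of 0.05 could not remove a call and so does not test it.

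The mutants lay close to each other for *RPS9B*. The log2 difference was 0.25 ± 0.16 (SE) between *cer7* and *rst1* (edgeR adjusted p = 0.433), 0.37 ± 0.16 between *cer7* and *ripr* (adjusted p = 0.172) and 0.12 ± 0.16 between *rst1* and *ripr* (adjusted p = 0.974). Between alleles it was -0.35 ± 0.22 for cer7-gabi over cer7-sail, 0.10 ± 0.21 for rst1-2 over rst1-3 and 0.30 ± 0.21 for riprT over riprC, and none of these passed the test. *RPS9B* was not near the top of the 45 in every genotype. Per kilobase of exon it ranked 1 in each mutant, with 139 CPM per kb in *cer7*, 116 in *rst1* and 107 in *ripr*, but ranked 9 in WT with 31.4.

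*RPS9C* (AT5G39850), which encodes the other S9 protein, gave almost no reads. Its 5 *cer7* libraries had 0 to 2 counts, its *rst1* libraries 0 to 2 and its *ripr* libraries 0 to 1, against 0 to 1 in WT. Of the 820 counts of the S9 family, *RPS9B* held 98.3%. Per kilobase of exon its mean level over all libraries was 43.4 times that of *RPS9C*, although the coding sequences are 80.8% identical and the encoded proteins 88.8%. Only 5 words of 21 bases occur in exons of both genes. Of the 1318 words of *RPS9B*, 1250 occur at only 1 place in the genome, and the other places that the rest match were not examined.

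*RPSAA* (chr1:27242845-27244931, minus strand) encodes SA, also known as P40, which is needed to form the small subunit. The *cer7* libraries had 34, 25 and 17 counts in cer7-gabi and 22 and 37 in cer7-sail. The *rst1* libraries had 16 to 23 (median 20), the *ripr* libraries 13 to 35 (median 23) and the WT libraries 7, 7 and 5. Again no mutant library overlapped with WT by CPM. Of the 27 tested members, 3 lay above WT in every library in *cer7* (22.6% of all tested genes did), 3 in *rst1* (15.8%) and 2 in *ripr* (16.2%). The mean was 90.8 ± 42.4 CPM in *cer7* (SD, n = 5), 80.9 ± 11.4 in *rst1* (n = 6) and 77.5 ± 14.1 in *ripr* (n = 6), against 30.4 ± 7.34 in WT (n = 3). The log2 fold change was 1.54 ± 0.36 (SE) in *cer7* (edgeR adjusted p = 0.0017), 1.40 ± 0.36 in *rst1* (adjusted p = 0.00637) and 1.36 ± 0.36 in *ripr* (adjusted p = 0.00729). The size was alike in the 3 mutants, with log2 differences of 0.14 ± 0.30 between *cer7* and *rst1*, 0.18 ± 0.29 between *cer7* and *ripr* and 0.05 ± 0.31 between *rst1* and *ripr*.

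The call of *RPSAA* was less firm than that of *RPS9B*, since it rests on 5 to 7 counts per WT library. In *cer7* it was lost without col0 replicate 3 (adjusted p = 0.0267, log2 fold change 1.24). In *rst1* it was lost without rst1-2 replicate 2, rst1-3 replicate 1 or any of the 3 WT libraries (adjusted p of 0.0108 to 0.0659), and in *ripr* without riprT replicate 3, riprC replicate 1 or any WT library (0.0131 to 0.0753). Without a filter on low counts the call was lost in every mutant (edgeR adjusted p = 0.0131 in *cer7*, 0.0664 in *rst1* and 0.0363 in *ripr*). It was further lost in *cer7* with only the *cer7* and WT libraries fitted (0.0213). With DESeq2 it was lost in *rst1* (adjusted p = 0.0133) and *ripr* (0.015). The log2 fold change stayed between 1.08 and 1.72 over all settings and mutants. The other SA gene, *RPSAb* (AT3G04770), had 0 to 2 counts in every library and 8 in all, so that *RPSAA* held 98.1% of the 416 counts of the family. *RPSAA* overlaps AT1G72360 on the opposite strand by 124 bases. That neighbour had 0 to 5 counts in any library. Counting by strand is not stated, so how reads in the overlap were assigned is not known, and their part in the *RPSAA* counts was not tested.

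*RPS7C* (chr5:5268421-5270199, plus strand) encodes S7, another small subunit protein. The *cer7* libraries had 20, 34 and 22 counts in cer7-gabi and 16 and 10 in cer7-sail. The *rst1* libraries had 10 to 13 (median 11.5), the *ripr* libraries 7 to 15 (median 13) and the WT libraries 2, 6 and 7. By CPM the *cer7* and *rst1* libraries were all above WT, and those of *ripr* overlapped with it. The level was 62.3 ± 16.1 CPM in *cer7* (SD, n = 5), 48 ± 7.26 in *rst1* (n = 6) and 43.4 ± 10.9 in *ripr* (n = 6), against 23.3 ± 11.4 in WT (n = 3). The log2 fold change of 1.40 ± 0.35 (SE) in *cer7* passed the test (edgeR adjusted p = 0.00312), while 1.00 ± 0.36 in *rst1* (adjusted p = 0.0477) and 0.85 ± 0.36 in *ripr* (adjusted p = 0.103) did not. The difference itself was not called either, at 0.40 ± 0.25 between *cer7* and *rst1* (adjusted p = 0.394) and 0.55 ± 0.24 between *cer7* and *ripr* (adjusted p = 0.178). The call in *cer7* was lost without col0 replicate 1 (adjusted p = 0.0411) or col0 replicate 2 (0.0137), by scaling to library size alone (0.0143) and with DESeq2 (0.0108). It was also lost without a filter on low counts (edgeR adjusted p = 0.0549) and with only the *cer7* and WT libraries fitted (0.0204).

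Unlike in the S9 and SA families, the other S7 genes also gave reads. *RPS7B* (AT3G02560) had 5 to 17 counts in *cer7*, 3 to 10 in *rst1* and 1 to 8 in *ripr*, against 0 to 3 in WT, and *RPS7A* (AT1G48830) had 6 to 10, 3 to 7 and 2 to 7, against 2 to 4 in WT. Both stayed below the filter. Fitted without a filter, *RPS7B* had a log2 fold change of 1.80 ± 0.67 (SE) in *cer7* with an edgeR adjusted p of 0.129. *RPS7C* held 54.4% of the 478 counts of its family. *RPS7C* and *RPS7B* share 37 words of 21 bases, which do not tell the genes apart.

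**Figure D1:**
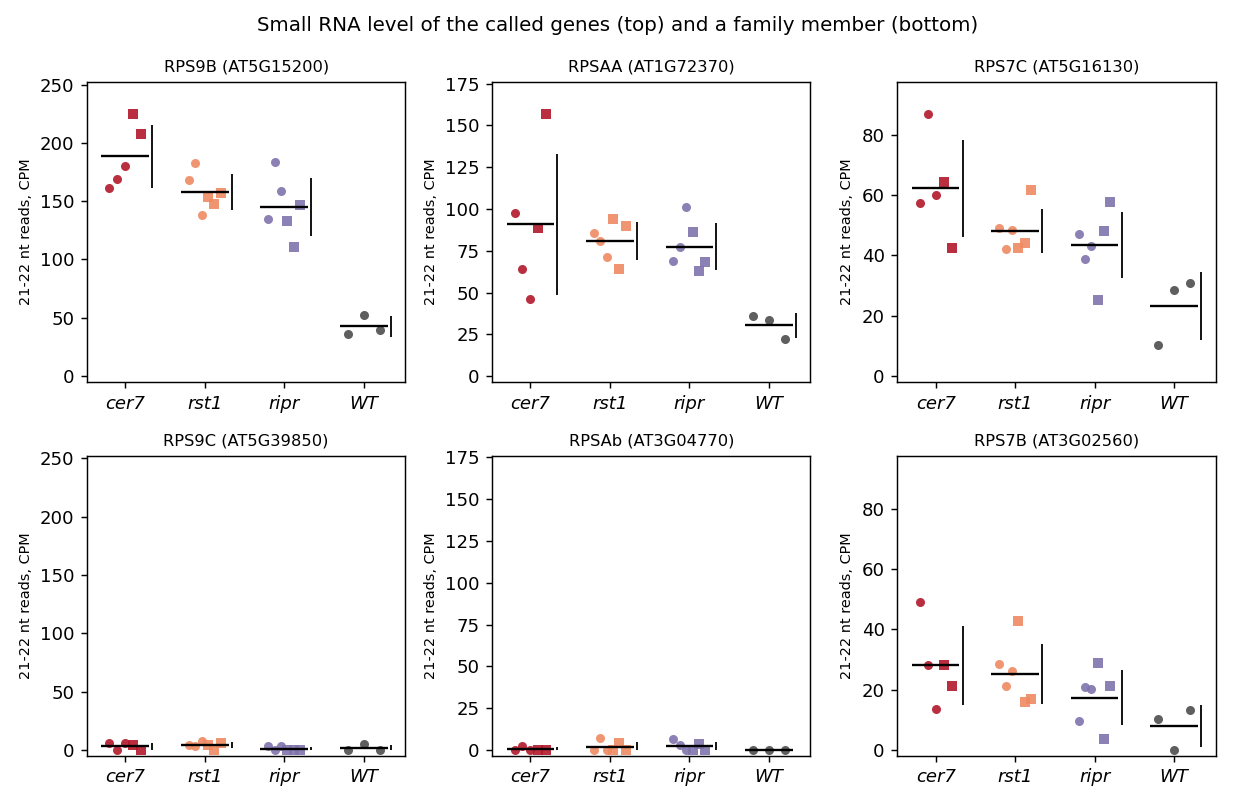
Level of 21 and 22 nt reads in CPM (vertical axis) by genotype (horizontal axis) for the 3 called genes in the upper row and for a gene of the same family in the lower row, on the same scale within a column. Each point is a library (circles cer7-gabi, rst1-2, riprT and col0, squares cer7-sail, rst1-3 and riprC), horizontal lines are means and vertical lines SD; RPS9B averaged 189 CPM in cer7, 158 in rst1 and 145 in ripr against 42.7 in WT, while RPS9C and RPSAb stayed near 0 in every genotype.

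The remaining 24 tested members did not pass the test in any mutant. Their median log2 fold change was 0.45 in *cer7* (range -0.28 to 1.27), 0.08 in *rst1* (-0.70 to 0.85) and 0.06 in *ripr* (-0.65 to 0.83), and the median SE was 0.52 for *cer7* and *rst1* alike and 0.50 for *ripr*. With SE of this size changes above 2-fold could also miss the threshold, as for the L15 gene AT4G16720, whose fitted fold change in *cer7* was 2.42 (log2 fold change 1.27 ± 0.62, edgeR adjusted p = 0.111) and was not called. The lowest edgeR adjusted p among them was 0.0963 in *cer7*, 0.202 in *rst1* and 0.327 in *ripr*. A positive value was found for 19 of these genes in *cer7*, for 13 in *rst1* and for 12 in *ripr*.

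*RPS2C* (AT2G41840), whose S2 protein also lies near the mRNA entry, had the second highest number of counts, 550. The *cer7* libraries had 31, 42, 29, 54 and 30 counts, the *rst1* libraries 17 to 29 (median 26.5) and the *ripr* libraries 23 to 34 (median 29), against 16, 7 and 23 in WT. The groups overlapped. The log2 fold change was 0.75 ± 0.35 (SE) in *cer7* (edgeR adjusted p = 0.0963), 0.48 ± 0.35 in *rst1* (0.347) and 0.48 ± 0.35 in *ripr* (0.377).

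*RPS8A* (AT5G20290), the S8 gene of this set, had no higher level in mutants. It had 31, 17, 16, 51 and 15 counts in *cer7*, 6 to 26 (median 12) in *rst1* and 11 to 18 (median 17) in *ripr*, against 15, 18 and 24 in WT. WT had the larger mean, 55 ± 30.1 CPM in *rst1* and 58.4 ± 18.2 in *ripr* against 89.5 ± 14.9 in WT, yet the groups overlapped and the log2 fold changes of -0.70 ± 0.44 (SE) in *rst1* and -0.65 ± 0.43 in *ripr* had edgeR adjusted p of 0.272 and 0.327. Per kilobase of exon *RPS8A* ranked 1 of the 45 in WT, with 80.1 CPM per kb. In *cer7* it ranked 4, in *rst1* 6 and in *ripr* 4.

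The S5 gene AT3G11940, whose protein sits near the mRNA exit, had 33, 14, 29, 59 and 17 counts in *cer7*, 8 to 29 (median 13.5) in *rst1* and 8 to 22 (median 11) in *ripr*, against 7, 15 and 19 in WT. It had the largest log2 difference of any tested member between *cer7* and *ripr*, 1.20 ± 0.40 (SE), with an edgeR adjusted p of 0.0643 and a DESeq2 adjusted p of 0.0438. The *cer7* mean of 104 ± 77.7 CPM holds 237 CPM in cer7-sail replicate 1, where the 4 other libraries had 35.8 to 94.9.

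Among the large subunit genes, *RPL3A* (AT1G43170) encodes L3, which reaches towards the peptidyl transferase centre. It had 26, 21, 18, 23 and 20 counts in *cer7*, 2 to 24 (median 19.5) in *rst1* and 9 to 17 (median 13.5) in *ripr*, against 14, 13 and 12 in WT. By CPM all *ripr* libraries, 35.9 to 51.9, lay below all WT libraries, 52.9 to 71.4, but the log2 fold change of -0.46 ± 0.35 (SE) had an edgeR adjusted p of 0.407. It was the only 1 of the 27 tested members below WT in all *ripr* libraries, where 8.26% of all tested genes lay below.

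*RPL4D* (AT5G02870), for L4, a protein of the peptide exit tunnel, had 36, 18, 17, 46 and 8 counts in *cer7*, 5 to 17 (median 11.5) in *rst1* and 6 to 24 (median 14.5) in *ripr*, against 11, 7 and 16 in WT. *RPL10A* (AT1G14320), for L10, which joins the large subunit late, had 20, 20, 17, 28 and 7 in *cer7*, 3 to 21 (median 12) in *rst1* and 7 to 17 (median 13.5) in *ripr*, against 9, 7 and 5 in WT. *RPP1A* (AT1G01100), for the acidic stalk protein P1, had 24, 12, 16, 25 and 5 in *cer7*, 8 to 17 (median 10) in *rst1* and 7 to 12 (median 8.5) in *ripr*, against 10, 5 and 5 in WT. All 3 overlapped between every mutant and WT, and their log2 fold changes in *cer7* of 0.60 ± 0.49, 0.81 ± 0.48 and 0.71 ± 0.45 (SE) had edgeR adjusted p of 0.346, 0.188 and 0.223.

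**Figure D2:**
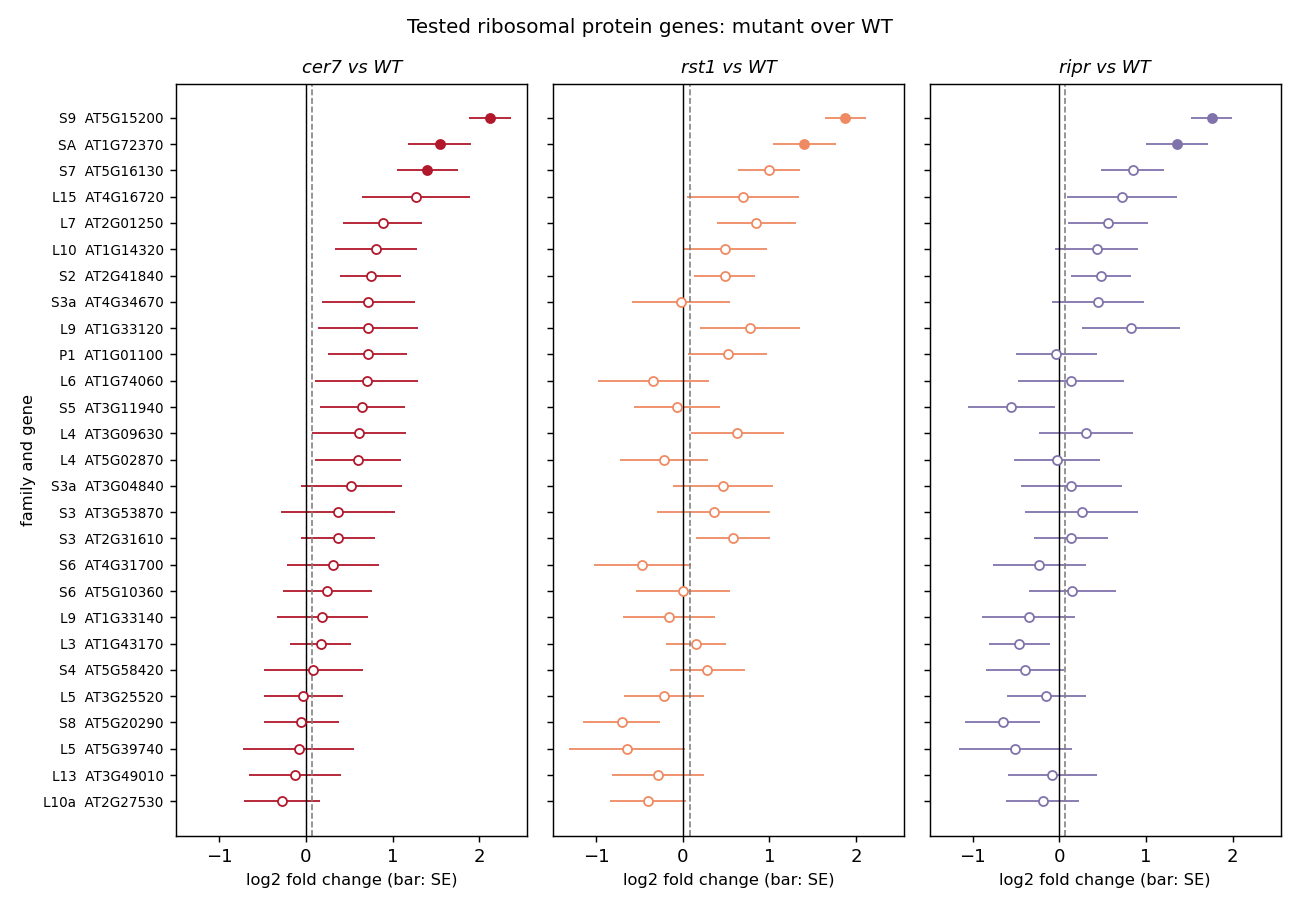
Log2 fold change over WT (horizontal axis) of the 27 tested members (vertical axis, with their family) in cer7, rst1 and ripr. Points are edgeR estimates, bars SE, filled points the called genes and the dashed line the median of all 2916 tested genes; RPS9B stands at 2.12 in cer7, 1.88 in rst1 and 1.76 in ripr, and the other 24 members have wide bars, with a median of 0.45 for cer7, against 0.08 and 0.06 for rst1 and ripr.

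The tested members were also set beside all tested genes as a whole. In *cer7* the median log2 fold change of the 27 tested members was 0.60, beside 0.07 for all tested genes, and 22 of 27 values were positive (81.5%, beside 51.9% of all genes). In *rst1* the median was 0.28 beside 0.09 for all genes, and in *ripr* 0.14 beside 0.07. Each of these medians moved with 1 library. Without cer7-sail replicate 1 the *cer7* median was 0.17, beside -0.01 for all genes, with 16 of 25 tested members positive, and the members raised in *cer7* were still 3. Without rst1-3 replicate 1 the *rst1* median was 0.09, beside 0.04 for all genes. Without riprC replicate 3 the *ripr* median was -0.06, beside 0.03 for all genes. Scaled to library size alone, the median of all genes in *cer7* was -0.23 and that of the members 0.33, so the distance between them was 0.53 with TMM scaling and 0.56 without it. The share of raised among all called genes in *cer7* was 88.8% with TMM scaling and 61.3% without. By subunit the median in *cer7* was 0.52 for 13 small subunit genes and 0.61 for 14 large subunit genes, and in *rst1* it was 0.36 and 0.00.

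Summed over the 45 genes, the level was 1821 ± 799 CPM in *cer7* (SD, n = 5), 1454 ± 284 in *rst1* (n = 6) and 1362 ± 333 in *ripr* (n = 6), against 1158 ± 54.2 in WT (n = 3). The ranges were 1276 to 3211 CPM in *cer7*, 1311 to 2030 in *rst1* and 998.5 to 1961 in *ripr*, against 1100 to 1207 in WT, so that *ripr* overlapped with WT. Without *RPS9B*, *RPSAA* and *RPS7C* the sum was 1479 ± 775 CPM in *cer7*, 1167 ± 282 in *rst1* and 1096 ± 322 in *ripr*, against 1062 ± 68.2 in WT. All 3 mutants then overlapped with WT.

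In each mutant 1 library stood above the others in this sum. It was cer7-sail replicate 1 with 3211 CPM, where the other *cer7* libraries had at most 1705, rst1-3 replicate 1 with 2030 and riprC replicate 3 with 1961. Of the 27 tested members, 22 had their highest *cer7* level in cer7-sail replicate 1, as did 32.6% of all tested genes. In rst1-3 replicate 1 it was 14 of 27, beside 24.8% of all genes, and in riprC replicate 3 also 14 of 27, beside 22.2%. The other ribosomal protein genes moved alike, with 22 of 33, 17 of 33 and 16 of 33 highest in these libraries, and 8 of 12, 5 of 12 and 4 of 12 translation factor genes. *RPS9B* had 225 CPM in cer7-sail replicate 1, beside 161 to 208 in the other *cer7* libraries. The part that RNA quality or growth date has in these libraries was not tested.

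**Figure D3:**
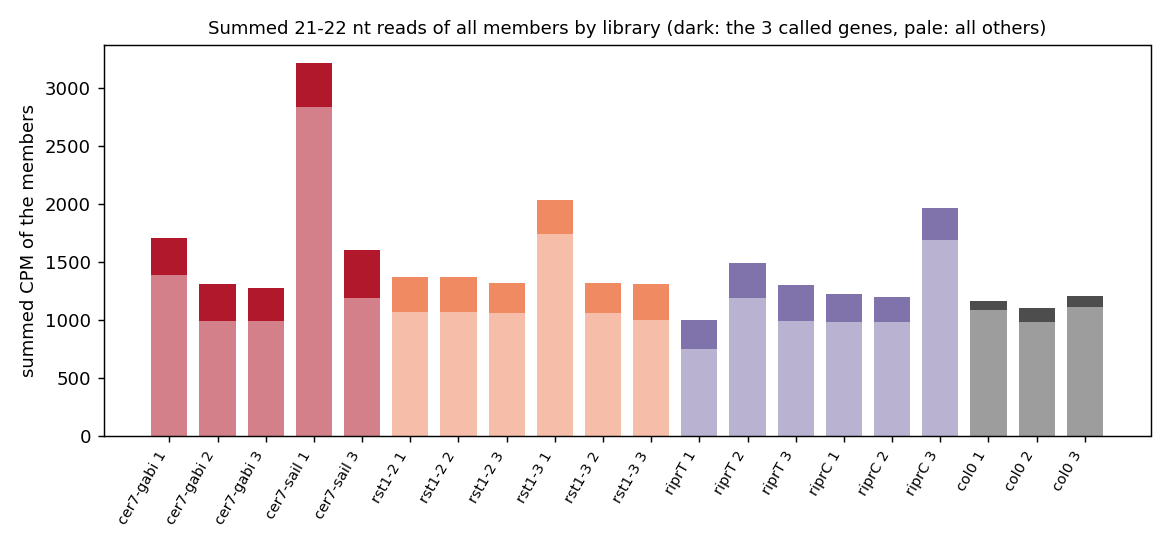
Summed level of the 45 genes in CPM (vertical axis) for each of the 20 libraries (horizontal axis, allele and replicate), the dark part from RPS9B, RPSAA and RPS7C and the pale part from all others. cer7-sail replicate 1 reaches 3211 CPM and the WT libraries 1100 to 1207. The dark part is larger in every mutant library than in WT, but its genes were picked because these same libraries called them higher in a mutant.

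No tested member differed between mutants by edgeR's test. Over all tested genes 2.5% differed between *cer7* and *rst1*, 2.95% between *cer7* and *ripr* and 0.617% between *rst1* and *ripr*. At an unadjusted p under 0.05 the members numbered 2 (7.41%, beside 19.3% of all tested genes), 5 (18.5%, beside 23.1%) and 1 (3.7%, beside 6.24%), and DESeq2 called 0 in each comparison at the same thresholds. Of the 27 members, 24 had a higher fitted level in *cer7* than in *ripr* (53% of all tested genes did) and 23 a higher one than in *rst1* (51.1% did). Without cer7-sail replicate 1 these were 17 of 25 against *ripr* (55.2% of all genes) and 13 of 25 against *rst1* (54.3%). The 3 comparisons with WT share the same 3 WT libraries, so their values are not independent of each other.

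No tested member differed between the alleles of a mutant either, where 0.343% of all tested genes differed between cer7-gabi and cer7-sail, 0.206% between rst1-2 and rst1-3 and 0% between riprT and riprC. At an unadjusted p under 0.05 the members numbered 12 between the *cer7* alleles (44.4%, beside 15.3% of all tested genes), 0 between the *rst1* alleles (beside 7.44%) and 0 between the *ripr* alleles (beside 2.67%), and DESeq2 called 0 in each. The 12 between the *cer7* alleles were all lower in cer7-gabi. The cer7-sail libraries are only 2, and cer7-sail replicate 1 is among them.

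The genes of a family were unequal sources of small RNA. Of 17 families with more than 1 gene in the set, *RPS9B*, *RPSAA* and the L10 gene *RPL10A* stood out. The last held 96.3% of the 271 counts of the 2 L10 genes in the set. A further L10 gene that is not in the set, *RPL10C* (AT1G66580), had 110 counts, so *RPL10A* does not hold nearly all counts of the whole family. Shares and ratios of families refer to the genes of the set only. Per kilobase of exon, *RPL10A* had 19.4 times the level of *RPL10B* (AT1G26910), and *RPL3A* had 7.03 times that of *RPL3B* (AT1G61580). The genes with the most and the fewest counts were 8.06-fold apart in L7, 5.37-fold in S2, 4.78-fold in S5, 2.75-fold in S3 and 2.7-fold in S7. The ratio was under 2 in the 8 other families, from 1.03 for S3a and 1.11 for S6 to 1.82 for S4. The L9 genes AT1G33140 and AT1G33120 are neighbours on chromosome 1 with coding sequences that are 99.1% identical, and only 34.3% and 39.9% of their 21-base words are unique, so their counts are uncertain. In S2, 52.5% of the 21-base words of AT1G58380, the gene with fewer counts, are unique, beside 94.7% of those of *RPS2C*. The S2 ratio is therefore uncertain as well. The lengths are those of merged RefSeq exons of TAIR10.1, and the length of the feature on which reads were counted is not given.

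**Figure D4:**
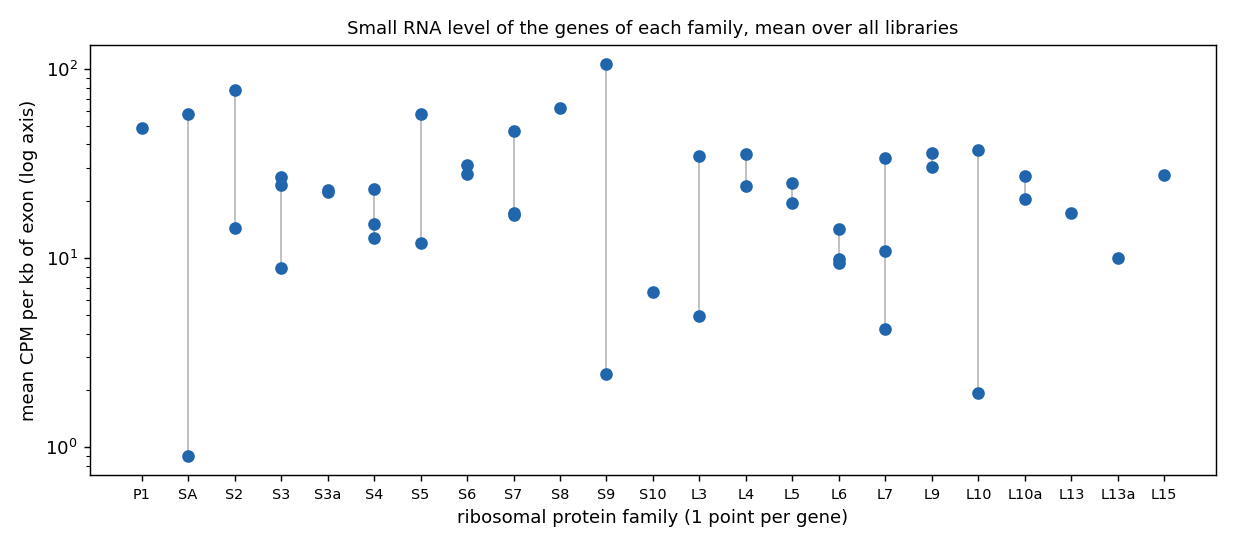
Mean level over all 20 libraries in CPM per kb of exon (vertical log axis) of the 45 genes, 1 point per gene, by protein family (horizontal axis), with a grey line joining the genes of a family. The S9 genes are 43.4-fold apart, the SA genes 64.4-fold and the L10 genes 19.4-fold, while the S3a and S6 genes nearly coincide.

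The 18 members below the filter had 8 to 120 counts each over all libraries and at most 17 in any library. All 45 genes had at least some reads. Fitted without a filter, 14 of the 18 had a positive log2 fold change in *cer7* (60.4% of all genes did), 4 had an unadjusted p under 0.05 (13.5% of all genes did) and none was called in any mutant. Besides the S7 genes and the minor S9, SA and L10 genes, they include the S10 gene AT4G25740 with 34 counts and the L13a gene AT3G07110 with 55.

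A list of 110 other cytosolic ribosomal protein genes, chosen like the set itself with results of these data known, was described in the same way. Of 33 that were tested, 5 were raised in *cer7* (15.2%, beside 17.4% of all genes). In *rst1* 2 were raised (6.06%, beside 9.95%) and in *ripr* also 2 (6.06%, beside 9.91%), and none was lower. *RPS13A* (AT3G60770) had the smallest adjusted p, with a log2 fold change of 2.79 ± 0.33 (SE) in *cer7* (edgeR adjusted p = 4.39e-07), 2.49 ± 0.33 in *rst1* (3.93e-06) and 2.22 ± 0.34 in *ripr* (2.27e-05). *RPL30C* (AT3G18740) was also raised in all 3 mutants, by log2 fold changes of 1.86 ± 0.44, 1.93 ± 0.44 and 2.13 ± 0.43 in *cer7*, *rst1* and *ripr*. *RPS16A* (AT2G09990), *RPS19A* (AT3G02080) and *RPL8C* (AT4G36130) were called in *cer7*, with log2 fold changes of 3.23 ± 0.60, 2.38 ± 0.42 and 2.29 ± 0.59 (SE). They rest on few WT counts, 1 to 2, 2 to 4 and 0 to 4 per library. Their values were also positive in *rst1* (2.05, 1.41 and 1.64) and *ripr* (2.08, 1.49 and 1.68). These were not called (edgeR adjusted p of 0.0153 to 0.0591), so the calls do not show a change particular to *cer7*.

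Translation factors load the ribosome and move it along the mRNA. Of 17 of their genes, chosen in the same way, 12 were tested. In *cer7* 5 were raised (41.7%, beside 17.4% of all tested genes), and the median log2 fold change of the 12 was 0.97, beside 0.07 for all tested genes. The summed level of the 17 genes was 2575 CPM in cer7-sail replicate 1, beside 1170 to 1576 in the other *cer7* libraries. Of the 12, 8 had their highest *cer7* level in that library, as did 32.6% of all tested genes. How far the share and the median rest on that library was not tested. In *rst1* 1 was raised (8.33%, beside 9.95%) and in *ripr* 2 (16.7%, beside 9.91%). The elongation factor gene *eEF2* (AT1G56070), which drives translocation, was raised in all 3 mutants with log2 fold changes of 1.13 ± 0.23 (SE) in *cer7*, 1.33 ± 0.22 in *rst1* and 1.17 ± 0.22 in *ripr* (edgeR adjusted p = 0.000402, 9.26e-05 and 0.000416). The helicase gene *eIF4A* (AT3G13920), which prepares mRNAs for initiation, was raised in *cer7* (1.35 ± 0.33) and *ripr* (1.28 ± 0.33). In *cer7* the calls further took in *eEF1A* (AT1G07930), a second *eIF4A* gene (AT1G54270) and the poly(A)-binding protein gene *PAB8* (AT1G49760). No translation factor gene was lower in any mutant.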

How the data were processed

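Small RNAs of flower buds were sequenced, and the authors deposited raw counts of 21 and 22 nt reads per gene for 20 libraries. According to the methods of the study, reads were trimmed with cutadapt v1.18, aligned without mismatches to TAIR10 with ShortStack in unique mode, and annotated against TAIR10. The submitters' processing notes further name bcl2fastq 2.17.1.14 and DESeq2. The counting tool and the use of strand are not given in the sources used here. All columns were used (0 left out).

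The counts were tested with edgeR 4.0.16 in R 4.3.3 by a quasi-likelihood fit to the 4 genotypes, alleles pooled as in the study, and to the 7 alleles for comparisons between alleles. Genes were filtered with filterByExpr (minimum count 10, minimum total 15) and scaled by TMM. SE were derived from the fold change and its p-value. DESeq2 1.42.0, other scalings, filters, sets of libraries, an adjusted p of 0.05, a replicate block and each library left out in turn were alternatives. The scripts were tested on simulated data. Positions, exons and sequences come from RefSeq's TAIR10.1, on which all 45 genes were found by locus. The rule for named genes took members called in any comparison and the 10 with the most counts. It also took members in the study's own list of siRNAs enriched in *cer7*. The genes of the same families as the called or listed ones were added. The members, lists and rules were chosen with earlier results of these data known. Replicates of an allele differed by more than sampling noise in all 19 pairs (chi-square per degree of freedom 3.79 to 11.8).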

Additional observations from a re-analysis of the deposited data

Results flagged for a closer look

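In 45 groups of 5 or 6 libraries (the summed share of the members and 14 named genes in each mutant), 9 held a library whose distance from its nearest neighbour, as a share of the range of the group, exceeded Dixon's critical value. For normally distributed values chance alone gives such a gap in about 1 of 20 groups. That rate does not hold for genes with counts near 0, such as *RPSAb*. The groups are also not independent, since they share libraries. The summed share of the 45 genes in the total counts was 0.261% in cer7-sail replicate 1, high for *cer7*, and 0.196% in rst1-3 replicate 1, high for *rst1*. In cer7-sail replicate 1 *RPS8A* (AT5G20290) reached 205 CPM. In cer7-gabi replicate 2 *RPSAb* (AT3G04770) had 2.56 CPM, which is 1 count where the other *cer7* libraries had 0. In *rst1*, the S5 gene AT3G11940 reached 124 CPM in rst1-3 replicate 1, *RPS7C* (AT5G16130) reached 61.6 CPM in rst1-3 replicate 3, and *RPL3A* (AT1G43170) was low in rst1-3 replicate 3 with 11.2 CPM, from 2 counts. In *ripr*, *RPS2C* (AT2G41840) reached 178 CPM and *RPP1A* (AT1G01100) 62.9 CPM in riprC replicate 3. *RPS9B* was not among them in any mutant.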

How the results depend on the processing

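The number of members raised in *cer7* was 3, and 1 without a filter on low counts and 1 when only the *cer7* and WT libraries were fitted. In *rst1* and in *ripr* it was 2, and 1 with DESeq2 and 1 without a filter. The gene left was *RPS9B* each time. Leaving out each library in turn gave 2 to 3 raised members in *cer7*, 1 to 2 in *rst1* and 1 to 2 in *ripr*, and 0 in all other comparisons. The log2 fold changes of named genes kept their side of the threshold in 647 of 660 values with a library left out and in 253 of 263 values under the other alternatives. The others, all of *RPSAA* or *RPS7C*, lost their call, none was gained and no called value changed its sign. Most of these values are of genes not called in that mutant, so the totals do not measure how firm the calls are. With a library left out, *RPSAA* kept its call in 19 of 20 values in *cer7*, 15 of 20 in *rst1* and 15 of 20 in *ripr*, and *RPS7C* in 18 of 20 in *cer7*. Under the 8 other alternatives *RPSAA* kept it in 6 in each mutant and *RPS7C* in 4 in *cer7*. These counts include the looser adjusted p threshold of 0.05, at which no call can be lost. The median of the members in *cer7* ranged from 0.17 to 0.70 with a library left out, an alternative chosen after seeing the data, as were the counts of positive members without cer7-sail replicate 1. A replicate block kept 3 members raised in *cer7*, 2 in *rst1* and 2 in *ripr*, and over all genes gave 512 raised genes in *cer7* where the fit without it gave 507. The numbers were not treated as pairing the libraries in the main fit, because the methods of the study name no block. Deviations correlated above 0.1 in 14 of 57 pairs with the same number (median 0.0671). As a hint from the data that some effect goes with the number, it was 5 of 114 pairs with different numbers (median -0.0327), and 17 of 20 libraries correlated best with their own number. Over all genes the block moved the calls between cer7-gabi and cer7-sail to 6 raised and 12 lower, where there were 3 and 7 without it. Low counts set the limits. With 3 WT libraries and 5 to 7 counts in each for *RPSAA*, a call can turn on 1 library, and the threshold on fold change leaves out every change under 2-fold.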

Other observations

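Other genes overlap 12 of the members. Most overlaps are with a neighbour on the opposite strand, from 12 bases at the L15 gene AT4G16720 to 618 at the L6 gene AT1G18540. Apart from AT1G48820, which overlaps *RPS7A* (AT1G48830) by 72 bases and had 19 to 43 counts in *cer7* and 19 to 50 in WT, no such neighbour in the table had more than 6 counts in any library. The L9 genes AT1G33140 and AT1G33120 each overlap, by 72 bases, a gene annotated as a microRNA on the opposite strand, which was not analysed here.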
